A study of Mus musculus with 4 samples.

Results

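The 10 genes described here are nuclear genes whose protein products copy mitochondrial DNA, transcribe it and keep its RNA stable: Tfam, Polrmt, Tfb1m, Tfb2m, Tefm, Twnk, Polg, Lrpprc, Slirp and Ppargc1a. They were taken by symbol, through their Ensembl identifiers in GENCODE M21, from a deposited table of 55487 genes. The rule for members names symbols and uses no measured value, though the set was proposed with earlier results of these data known. All 10 were in the table and all 10 passed the filter on low counts. Their counts were set beside those of the 37 genes of the mitochondrial genome in the same table. RNA was sequenced from bulk hepatocellular carcinoma (HCC) tissue of 4 mice, with the aim of learning how Tfrc, the transferrin receptor that carries iron into cells, shapes the tumour's surroundings. All 4 mice carried Alb-cre, a Cre recombinase driven by the albumin promoter, and H11-myc, a Myc transgene at the H11 locus that gives spontaneous c-Myc-driven liver tumours. In 2 of them Tfrc was deleted conditionally in the liver (knockout), and 2 were wild type for Tfrc. The albumin promoter is active in hepatocytes and cells of that lineage, so the other cells of the tumour are outside the reach of the deletion. The labels used here give no age, sex or litter of the mice.

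Mitochondrial DNA is a small circle copied by its own machinery: Twnk, the helicase Twinkle, opens the strands and Polg, the catalytic subunit of DNA polymerase gamma, copies them. Tfam packages the DNA and bends it at the promoters, Tfb2m opens the promoter for the RNA polymerase Polrmt, and Tefm keeps the polymerase moving along the template. The transcripts run through many genes and are cut into messenger, ribosomal and transfer RNAs, and the complex of Lrpprc with Slirp binds the messenger RNAs and keeps them from decay. Tfb1m, a relative of Tfb2m, methylates the small ribosomal RNA, and the coactivator Ppargc1a (PGC-1 alpha) works with transcription factors such as NRF1 and the ETS protein GABP on nuclear genes of the mitochondrion. Hepatocytes hold many mitochondria, and in MYC-driven tumours MYC itself is known to act on genes of mitochondrial biogenesis.

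The start regions of 5 members are shown because each holds a match to a motif searched for and belongs to a gene described in detail: Twnk and Polg, with the largest fold changes of the set, Tfam, Tfb2m and Ppargc1a. Each is 300 bases, from 250 before to 50 after a transcription start, from the RefSeq table of build GRCm38.p6, which matched all 10 members in 11 windows, since Twnk has 2. They lie at chr19:45006308-45006607 on the plus strand (the second Twnk window), and on the minus strand at chr7:79466224-79466523 (Polg), chr10:71237995-71238294 (Tfam), chr1:179546227-179546526 (Tfb2m) and chr5:51567676-51567975 (Ppargc1a). Capitals mark motif matches on either strand.
Twnk: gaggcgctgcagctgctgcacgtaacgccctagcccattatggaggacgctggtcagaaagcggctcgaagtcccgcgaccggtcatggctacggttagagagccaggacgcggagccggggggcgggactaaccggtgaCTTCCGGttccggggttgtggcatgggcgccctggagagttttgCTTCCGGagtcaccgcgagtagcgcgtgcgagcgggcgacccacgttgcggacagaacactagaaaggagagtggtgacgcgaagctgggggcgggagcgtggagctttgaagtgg
Polg: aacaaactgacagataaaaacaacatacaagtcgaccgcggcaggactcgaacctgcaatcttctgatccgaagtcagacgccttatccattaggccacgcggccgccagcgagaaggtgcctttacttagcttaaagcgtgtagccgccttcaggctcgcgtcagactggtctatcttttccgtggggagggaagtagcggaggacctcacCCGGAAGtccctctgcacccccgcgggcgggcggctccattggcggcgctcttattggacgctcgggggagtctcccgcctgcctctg
Tfam: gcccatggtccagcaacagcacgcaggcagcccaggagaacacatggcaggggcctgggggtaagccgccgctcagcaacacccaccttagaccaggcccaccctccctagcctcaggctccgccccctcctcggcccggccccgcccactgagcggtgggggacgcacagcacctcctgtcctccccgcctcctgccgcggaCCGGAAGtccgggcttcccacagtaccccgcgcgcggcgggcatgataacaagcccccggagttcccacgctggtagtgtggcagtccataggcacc
Tfb2m: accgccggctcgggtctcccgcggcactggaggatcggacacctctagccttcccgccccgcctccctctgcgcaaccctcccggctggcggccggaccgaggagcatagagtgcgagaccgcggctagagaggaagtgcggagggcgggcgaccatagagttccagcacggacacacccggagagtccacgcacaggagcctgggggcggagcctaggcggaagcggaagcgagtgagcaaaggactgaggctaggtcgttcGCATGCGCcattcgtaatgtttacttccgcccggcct
Ppargc1a: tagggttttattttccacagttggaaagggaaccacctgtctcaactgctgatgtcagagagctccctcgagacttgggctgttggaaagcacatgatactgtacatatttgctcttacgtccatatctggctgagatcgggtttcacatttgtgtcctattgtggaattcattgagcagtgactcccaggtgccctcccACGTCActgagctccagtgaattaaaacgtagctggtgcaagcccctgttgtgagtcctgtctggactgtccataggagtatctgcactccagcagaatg

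Both strands of the windows were searched for 4 exact motifs, and no matches in the members overlapped each other. The ETS motif CCGGAAG was found in 6 of the 11 windows, those of Polg, Tfam, Polrmt, Tefm, Slirp and the second window of Twnk, and in 8.86% of the 32851 windows of all genes. Positions are counted from the 5′ end of the window, with the start at base 251. The ETS motif lay at bases 213 to 219 in Polg and at 204 to 210 in Tfam. In Twnk it lay on the opposite strand, at 141 to 147 and at 185 to 191. That Twnk window also holds the annotated start of the minus-strand gene Mrpl43, at chr19:45006442. Both matches lie between that start and the one of Twnk. The NRF1 core GCATGCGC was found in 2 members, Tfb2m at bases 264 to 271 and Polrmt, and in 2.71% of all windows. The half-site of the cAMP response, TGACGT, was found in Ppargc1a and Lrpprc and in 7.51% of all windows. The E-box CACGTG, a motif bound by MYC with MAX, was in none of the 11 windows and in 7.15% of all windows. A match describes letters in these windows and was not measured as binding.

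Total counts were 15918349 to 17052943 per library. Values are CPM, counts scaled by TMM to a common library size, and 3 counts in a library correspond to 0.176 to 0.188 CPM. Tfrc itself had 460 CPM in wild type 1, 234 in wild type 2, 334 in knockout 1 and 205 in the other knockout, or -0.37 on the log2 scale (SE 0.45), with overlapping groups (edgeR quasi-likelihood test, adjusted p = 0.833). Gene-wide counts from bulk tissue include cells outside the deletion and any exons left in place, so they do not check the labels, and the groups are named here as labelled. Wild type 2 stood apart on the first principal component, which held 48.2% of the variance (86.6, against -11.2, -37 and -38.5 in the other libraries). Of 16310 genes tested, none passed an adjusted p of 0.05 with edgeR, while 1354 had an unadjusted p under 0.05 and DESeq2 called 150 of 15045. The samples are 1 tumour library from each of 4 animals. The p-values rest on the spread between these libraries, with its estimate pooled across genes. Spread between animals, between tumours and from handling cannot be told apart.

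None of the 10 members passed the test of knockout against wild type libraries by edgeR's quasi-likelihood test, against a background of 0% of all genes called, and none of the 10 had an unadjusted p under 0.05, against 8.3% of all genes (3.95% higher and 4.35% lower). DESeq2, with a background of 0.997% called, and limma-voom also called none of them, nor did either give a member an unadjusted p under 0.05. The median log2 fold change of the members was -0.07, from -0.24 in Lrpprc to 0.50 in Twnk, beside a median of 0.01 over all genes tested. For 6 of the 10 the libraries of the groups overlapped. For Twnk, Polg and Ppargc1a both libraries labelled knockout lay above both wild types, and for Tfb1m below them. That is 4 of 10 without overlap, against 42% of all genes tested (21.9% higher and 20.1% lower in knockout), a share near the background. In bulk tissue, fewer cells of a type and less RNA per cell cannot be told apart in any of these values. The smallest two-sided p of an exact permutation test with 2 against 2 libraries is 0.333, and only the fit across genes was used.

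**Figure D1:**
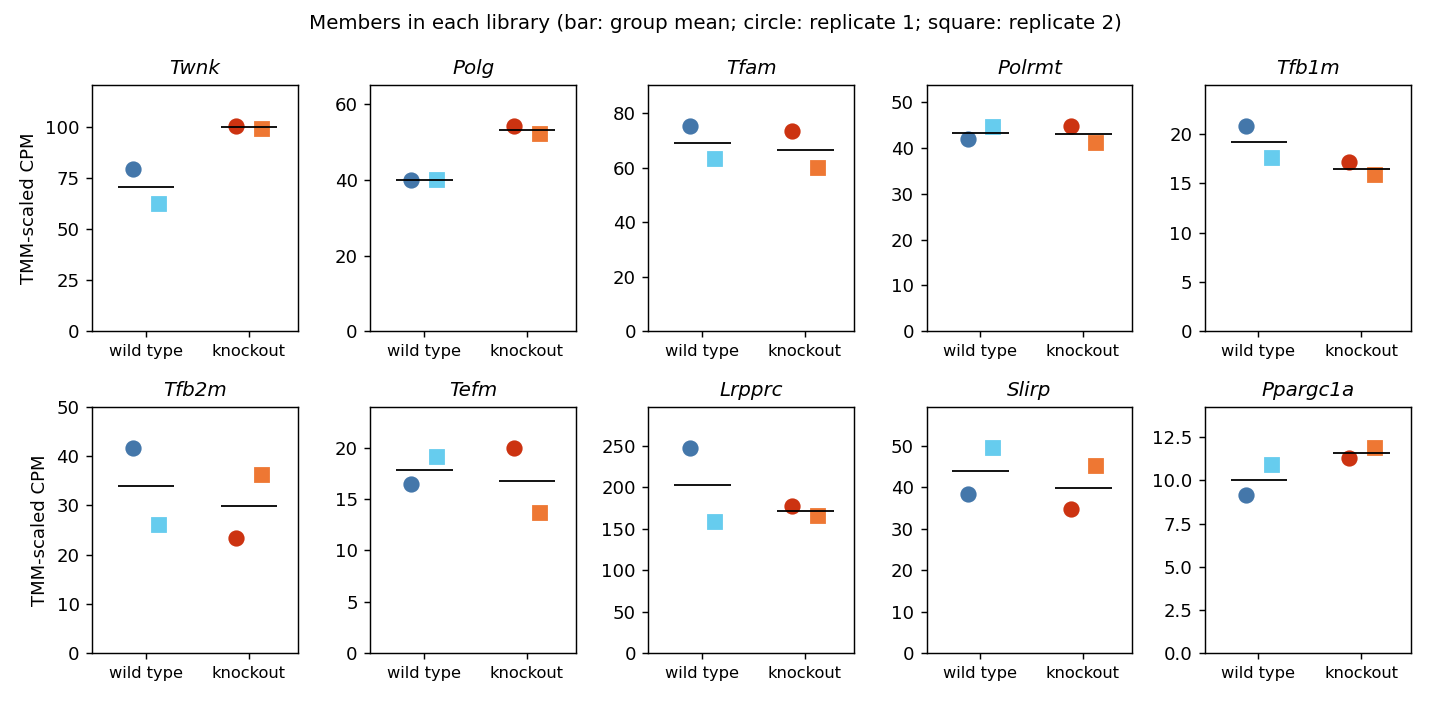
CPM of the 10 members (vertical axes, each from 0) in the 4 libraries, with circles for replicate 1, squares for replicate 2 and black bars for group means. Twnk, Polg and Ppargc1a have both knockout points above both wild type points, Tfb1m has both below, and the other 6 overlap.

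The members that copy mitochondrial DNA had the highest fold changes of the set. Twnk (ENSMUSG00000025209, chr19:45005663-45012762 in mm10, plus strand) had 79.2 and 62.1 CPM in wild type 1 and 2, and 100.3 and 98.9 CPM in knockout 1 and 2. Both knockouts lay above both wild types, with group means of 70.6 ± 12.1 and 99.6 ± 0.991 CPM (SD, n = 2 each). The log2 fold change was 0.50 (SE 0.29, 95% interval from -0.20 to 1.19), or 1.41-fold, and it did not pass edgeR's quasi-likelihood test (adjusted p = 0.664). Polg (ENSMUSG00000039176, chr7:79446231-79466362, minus strand) had 40.0 and 40.1 CPM in the wild types, and 54.3 and 52.3 CPM in the knockouts. The pairs of libraries were each close together, at 40.0 ± 0.0813 and 53.3 ± 1.41 CPM (SD, n = 2 each), and did not overlap. Its log2 fold change was 0.41 (SE 0.28, 95% interval from -0.25 to 1.08), or 1.33-fold, and missed the threshold in edgeR's quasi-likelihood test (adjusted p = 0.692). Both genes share exon bases with a gene on the opposite strand, 507 bases of Twnk with Mrpl43 and 921 of Polg with Fanci, and the sources used here do not give whether the counting used strand. Mrpl43 had 800, 1284, 851 and 699 counts in the order wild type 1, wild type 2, knockout 1 and knockout 2, beside 1454, 955, 1626 and 1568 for Twnk. Fanci had 186, 137, 143 and 129 counts, beside 734, 617, 881 and 830 for Polg. The part of these partners in the counts of Twnk and Polg was not tested.

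The replication genes were also set against each other and against Tfam. There were 1.98 and 1.55 Twnk counts per Polg count in the wild types and 1.85 and 1.89 in the knockouts, which overlap. Per Tfam count, there were 1.05 and 0.983 counts of Twnk in the wild types and 1.36 and 1.65 in the knockouts. Polg per Tfam was 0.53 and 0.635 against 0.738 and 0.876. The last 2 ratios, chosen after the values were seen and given with no test, do not overlap between the groups.

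Of 18 further genes of mitochondrial DNA replication and maintenance, 11 had log2 fold changes above 0 and 7 below it, with a median of 0.28, and none passed edgeR's test. Libraries labelled knockout lay above wild type without overlap for 7 and below for 1, where 21.9% and 20.1% of all genes tested did so. The 4 with the smallest p were Top1mt, the mitochondrial type I topoisomerase, at -0.73, Top3a, which separates finished circles, at 0.71, the inner membrane protein Mpv17 at 0.51 and the DNA ligase Lig3 at 0.68. Top1mt had 67.6 and 103 CPM in the wild types against 57.7 and 45.2 in the knockouts, and Top3a had 8.39 and 10.7 against 15.8 and 15.3. Neither pair of groups overlapped, and the smallest adjusted p of the list was 0.627 in edgeR's quasi-likelihood test. Polg2, the accessory subunit that clamps Polg to DNA, had 7.62 and 9.55 CPM in the wild types and 9.62 and 11.6 in the knockouts, and Ssbp1, which coats the opened strand, had 47.6 and 38.1 against 45.8 and 60.5. These last genes were added for their place beside Polg and Twnk after their values were seen.

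Of 6 genes of nucleotide supply and breakdown, 4 had positive and 2 negative values, with a median of 0.09. Slc29a1, a nucleoside transporter, had 183 and 252 CPM in the wild types against 98.4 and 140.5 in the knockouts. Its log2 fold change was -0.86 (SE 0.35) with an adjusted p of 0.591 in edgeR's quasi-likelihood test, and its unadjusted p was under 0.05. The nucleotide hydrolase Samhd1 had 0.32, the thymidine kinase Tk2 0.33 and the deoxyguanosine kinase Dguok -0.24, none of them called.

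The genes of the transcription apparatus differed little in mean and overlapped between groups for all but Tfb1m. Tfam (ENSMUSG00000003923, chr10:71225464-71238280, minus strand) had 75.4 and 63.2 CPM in the wild types and 73.6 and 59.8 CPM in the knockouts. In both groups replicate 1 was the higher library, and the means of 69.3 ± 8.68 and 66.7 ± 9.76 CPM (SD, n = 2 each) differed by less than the spread. The log2 fold change was -0.06 (SE 0.30, 95% interval from -0.76 to 0.65; edgeR quasi-likelihood test, adjusted p = 0.966). Polrmt (ENSMUSG00000020329, chr10:79736123-79746581, minus strand) was the steadiest member, with 42.0 and 44.6 CPM in the wild types and 44.8 and 41.1 in the knockouts. Its interval for the log2 fold change of -0.01 ran from -0.68 to 0.66 (edgeR quasi-likelihood test, adjusted p = 0.992).

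Tfb2m (ENSMUSG00000026492, chr1:179528055-179546267, minus strand) varied within groups, with 41.7 and 26.1 CPM in the wild types and 23.4 and 36.2 in the knockouts. The highest and the next lowest library were both wild type, and the log2 fold change was -0.19 (SE 0.38, 95% interval from -1.09 to 0.72; edgeR quasi-likelihood test, adjusted p = 0.905). Against Polrmt, the polymerase it works with, Tfb2m had 0.994 and 0.584 counts per count in the wild types and 0.521 and 0.88 in the knockouts, again overlapping. Tefm (ENSMUSG00000046909, chr11:80136678-80142175, minus strand) had 16.5 and 19.1 CPM in the wild types and 20.0 and 13.6 in the knockouts, so that the knockouts were its highest and its lowest libraries (log2 fold change -0.08, SE 0.37, 95% interval from -0.95 to 0.79; edgeR quasi-likelihood test, adjusted p = 0.961). Tfb1m (ENSMUSG00000036983, chr17:3519256-3557781, minus strand) had 20.8 and 17.6 CPM in the wild types and 17.1 and 15.8 in the knockouts. Both knockouts were below both wild types by a narrow margin, with means of 19.2 ± 2.26 and 16.4 ± 0.932 CPM (SD, n = 2 each). The log2 fold change of -0.23 (SE 0.34, 95% interval from -1.02 to 0.57) did not pass edgeR's quasi-likelihood test (adjusted p = 0.865). Tfb1m shares 142 exon bases with Tiam2 on the opposite strand, which had 265, 265, 209 and 93 counts beside 382, 271, 277 and 250 for Tfb1m.

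Among 6 other transcription factors of the mitochondrion, 4 were positive and 2 negative, with a median of 0.08. Mterf4, which guides a ribosomal RNA methyltransferase, had 20.7 and 30.2 CPM in the wild types against 14.3 and 16.2 in the knockouts. Its log2 fold change was -0.74 (SE 0.36; edgeR quasi-likelihood test, adjusted p = 0.631). Mrpl12, a ribosomal protein that also binds Polrmt, had -0.62, and the Mterf family members Mterf3 and Mterf2 had 0.31 and 0.58. None of the 6 was called.

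Lrpprc and Slirp, which bind each other, had their highest values in opposite wild type libraries. Lrpprc (ENSMUSG00000024120, chr17:84705247-84790789, minus strand) had 248 and 158 CPM in the wild types and 178 and 165 in the knockouts. Wild type 1 was high and wild type 2 the lowest library, with the knockouts between them, and means were 203 ± 64.1 and 171 ± 9.3 CPM (SD, n = 2 each). The log2 fold change was -0.24 (SE 0.35, 95% interval from -1.06 to 0.58; edgeR quasi-likelihood test, adjusted p = 0.856). Slirp (ENSMUSG00000021040, chr12:87443896-87452206, plus strand) had 38.5 and 49.6 CPM in the wild types and 34.7 and 45.2 in the knockouts. Replicate 2 was higher in both groups, and the log2 fold change was -0.14 (SE 0.32, 95% interval from -0.89 to 0.61; edgeR quasi-likelihood test, adjusted p = 0.914). The groups also overlapped in Lrpprc counts per Slirp count, with 6.45 and 3.18 in the wild types and 5.13 and 3.64 in the knockouts. Slirp is the least certain member, because 2914 of its 3104 annotated exon bases lie opposite exons of Snw1, which had 774, 581, 673 and 433 counts beside 707, 763, 562 and 717 for Slirp.

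Genes that cut and modify mitochondrial RNA, and those of RNA granules and RNA or protein decay, had medians near 0. In edgeR's test, 3 of them had an unadjusted p under 0.05, where 8.3% of all genes tested did so. These were the RNA-modifying enzymes Trmu and Mrm1 and the protease Lonp1. Of 8 tested genes that cut or polyadenylate the RNA, 5 were positive and 3 negative, with a median of 0.02, led by Ptcd2 at -0.52, the CCA-adding enzyme Trnt1 at 0.51, and the RNase P subunits Hsd17b10 at -0.38 and Trmt10c at 0.29. Of 21 RNA-modifying enzymes, 11 were positive and 10 negative, also with a median of 0.02. Trmu, which thiolates the wobble base of transfer RNAs, had 29.2 and 35.3 CPM in the wild types against 17.3 and 16 in the knockouts (log2 fold change -0.95, SE 0.32; edgeR quasi-likelihood test, adjusted p = 0.548). Mrm1, a methyltransferase of the large ribosomal RNA, went the other way, with 3.59 and 4.94 CPM against 8.33 and 9.71 (log2 fold change 1.08, SE 0.43; edgeR quasi-likelihood test, adjusted p = 0.591). Its relative Mrm2 had -0.94, and Mto1, which modifies the same wobble base as Trmu, had -0.60.

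Of 16 genes of RNA granules and RNA or protein decay, 7 were positive and 9 negative, with a median of -0.03. Lonp1, the matrix protease known to degrade Tfam, had 421 and 518 CPM in the wild types against 251 and 190 in the knockouts. Both knockouts were well below both wild types, with a log2 fold change of -1.09 (SE 0.36), which did not pass edgeR's quasi-likelihood test after adjustment (adjusted p = 0.547). The granule protein Fastkd2 had -0.79 and the matrix protease Clpp -0.57, while Fastkd1, a relative of Fastkd2, had 0.58. These 3 did not overlap between the groups either. Of the 16, knockouts lay above wild types without overlap for 5 and below for 4. Among all genes tested, 21.9% and 20.1% did so.

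Ppargc1a (ENSMUSG00000029167, chr5:51454250-51567726, minus strand) had few counts in every library, with 9.15 and 10.9 CPM in the wild types and 11.3 and 11.9 in the knockouts. The knockouts lay above the wild types by a small margin, at 11.6 ± 0.403 against 10 ± 1.25 CPM (SD, n = 2 each). Its log2 fold change of 0.21 (SE 0.36, 95% interval from -0.65 to 1.06), or 1.15-fold, did not pass edgeR's quasi-likelihood test (adjusted p = 0.883). Of 13 tested regulators of mitochondrial biogenesis listed beside it, 10 were positive and 3 negative, with a median of 0.18. Both knockouts lay above both wild types for 5 of them, against 21.9% of all genes tested. They lay below for none, against 20.1%. Pprc1, a coactivator related to Ppargc1a, had 29.2 and 37 CPM in the wild types against 54.5 and 56.0 in the knockouts (log2 fold change 0.74, SE 0.30; edgeR quasi-likelihood test, adjusted p = 0.591). Sirt1, a deacetylase of PGC-1 alpha, had 8.99 and 5.26 CPM against 13.4 and 16.7 (log2 fold change 1.08, SE 0.42; edgeR quasi-likelihood test, adjusted p = 0.591). The cofactor Hcfc1 had 0.50 and the transcription factor Yy1 0.40. In Hcfc1 and Yy1, wild type 2 was the low library, at 37.6 and 60.6 CPM, while wild type 1, at 85.6 and 99.8, was close to the knockouts. Of the 13, Pprc1 and Sirt1 had an unadjusted p under 0.05 in edgeR's test, where 8.3% of all genes tested did so.

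Nuclear genes of protein import and the matrix, 16 in all, had a median of -0.21, with 6 positive and 10 negative. Mitochondrial content itself was not measured. Knockouts lay below wild types without overlap for 5 of them and above for none, where 20.1% and 21.9% of all genes tested did so. None was called. The import receptor Tomm22 had -0.51, and the chaperones Hspe1 and Hspa9 had -0.41 and -0.47. Over all 8 pathway lists, 104 genes were tested, 58 positive and 46 negative with a median of 0.02. Knockouts lay above wild types without overlap for 24 and below for 20, near the shares of all genes. In edgeR's test, 3 were higher and 3 lower at an unadjusted p under 0.05, where 3.95% and 4.35% of all genes tested were. None was called by edgeR, DESeq2 or limma-voom.

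**Figure D2:**
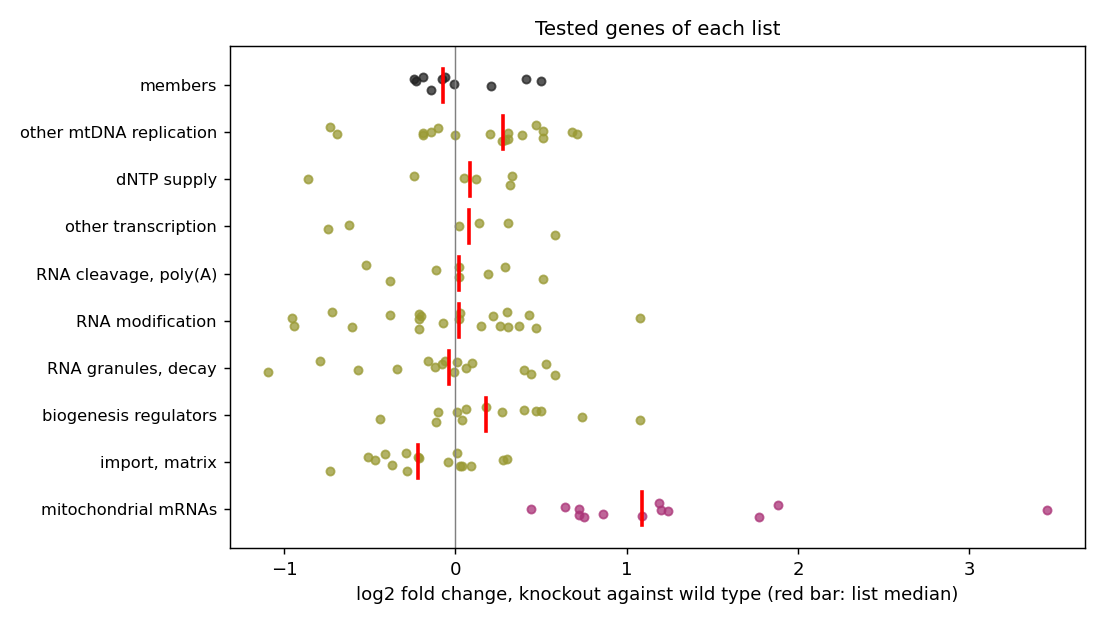
Log2 fold change, knockout against wild type (horizontal axis), of each tested gene of the members, the 8 other pathway lists and the mitochondrial mRNAs, with red bars for list medians. The members centre at -0.07 and the 8 lists between -0.21 and 0.28, while the mitochondrial mRNAs centre at 1.09 and all lie to the right of 0.

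Per unit of gene length, on the deposited FPKM scale, Twnk had the highest mean over the 4 libraries at 21.3 ± 5.09, followed by Lrpprc at 17.7 ± 5.63, Tfam at 12.9 ± 2.54 and Slirp at 10.5 ± 1.1 (SD, n = 4). Below them on the same scale came Tfb2m at 7.94 ± 2.71, Tefm at 7.18 ± 1.29, Polrmt at 4.64 ± 0.397, Tfb1m at 4.48 ± 0.914, Polg at 2.57 ± 0.452 and Ppargc1a at 1.28 ± 0.1. Neighbours in this order overlapped in their libraries, apart from Tefm with Polrmt, Tfb1m with Polg, and Polg with Ppargc1a. The gene lengths implied by the deposited FPKM were longer than the merged GENCODE exons for every member but Twnk, by a factor of up to 1.99 in Polrmt. With the GENCODE lengths, Lrpprc came first at 22.4 ± 7.12 CPM per kilobase and Twnk next at 21.3 ± 5.1, and the order of the other 8 was the same.

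The mitochondrially encoded messenger RNAs went beyond the members in size of difference. All 13 had a positive log2 fold change, with a median of 1.09 (0.44 to 3.45), where 50.4% of all genes tested were positive. For 9 of the 13 the libraries labelled knockout lay above both wild types, where 21.9% of all genes tested did so, and mt-Nd1, mt-Nd3, mt-Nd5 and mt-Nd6 overlapped. They are cut from shared precursors of the same genome and are not independent of each other. None passed edgeR's quasi-likelihood test (smallest adjusted p = 0.424). In that test 2, mt-Atp6 and mt-Atp8, had an unadjusted p under 0.05, where 8.3% of all genes tested did so. DESeq2 called these 2, with 5 at an unadjusted p under 0.05, and limma-voom called none, with 3 at an unadjusted p under 0.05. The median was 0.67 without wild type 2, 1.54 without wild type 1, 1.43 without knockout 1 and 0.59 without knockout 2, so it was lowest without knockout 2 or without wild type 2.

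The 37 mitochondrial genes together took 8.69% of the counts in wild type 1 (95% Wilson interval 8.679 to 8.706), 4.13% in wild type 2 (4.123 to 4.142), 9.8% in knockout 1 (9.781 to 9.81) and 16.6% in knockout 2 (16.61 to 16.64). Wild type 1 was closer to knockout 1 than to wild type 2, and knockout 2 stood highest. The 10 members together took 0.0684%, 0.0443%, 0.0568% and 0.0521% in the same order, with the wild types as highest and lowest. Set against Tfam, the protein that coats the DNA they are read from, there were 1019.5 and 719 mitochondrial messenger counts per Tfam count in the wild types and 1301 and 2861 in the knockouts. Set against Lrpprc, the 6 messenger RNAs with no annotated near-identical nuclear copy had 128 and 98 counts per Lrpprc count in the wild types. In the knockouts they had 189 and 385. Both ratios were higher in both knockouts, and both were given with no test. As a share of all counts, the same 6 messenger RNAs took 3.57% in wild type 1 and 1.4% in wild type 2. They took 3.42% in knockout 1 and 6.12% in knockout 2, so in this share the groups overlapped.

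**Figure D3:**
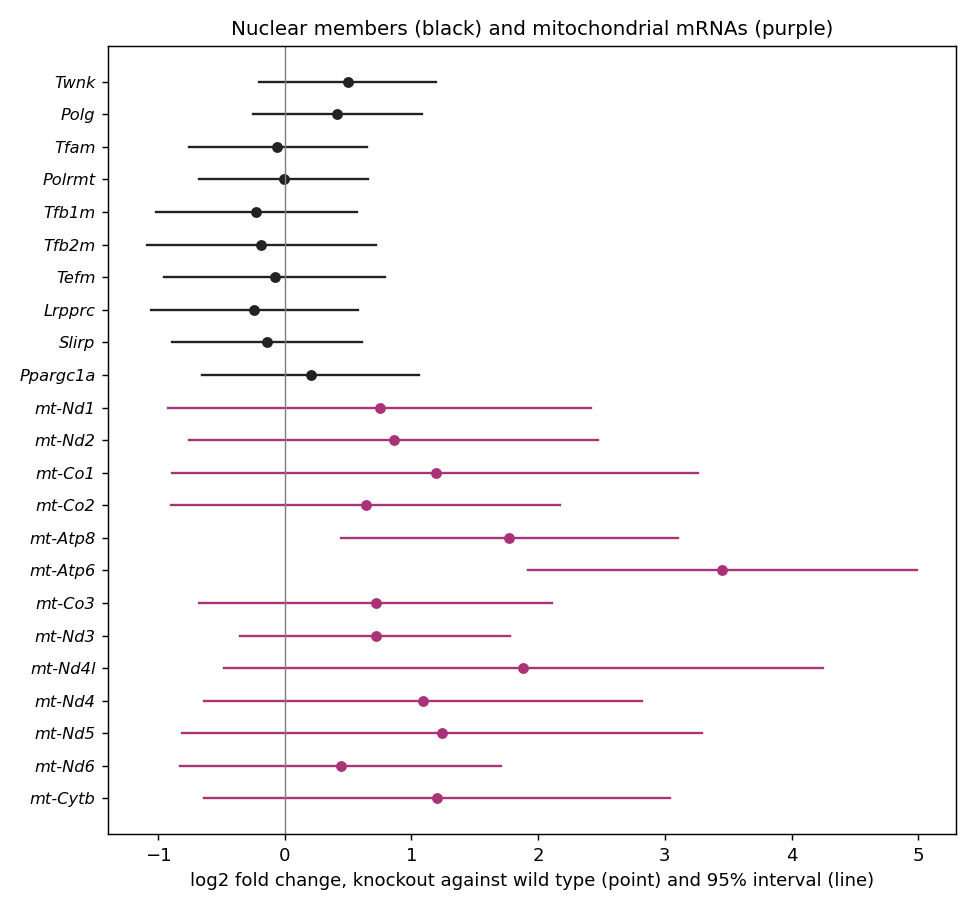
Log2 fold changes, knockout against wild type, as points with 95% intervals from the edgeR fit as lines, for the 10 members in black and the 13 mitochondrial mRNAs in purple. All 10 intervals of the members span 0, as do those of the mitochondrial mRNAs other than mt-Atp6 and mt-Atp8.

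Among subunits of cytochrome c oxidase, mt-Co1 took the most counts of the 13 messengers, with 24031 and 14716 CPM in the wild types and 32460.3 and 55654 in the knockouts (log2 fold change 1.19). The log2 fold change was 0.64 for mt-Co2, with 6465 and 6072 CPM against 6835 and 12644, and 0.72 for mt-Co3, with 4566 and 4311 against 5813 and 8774. In all 3 genes the step from the wild types to knockout 1 was smaller than that from knockout 1 to knockout 2. Without knockout 2 the log2 fold changes were 0.75 for mt-Co1, 0.13 for mt-Co2 and 0.39 for mt-Co3. For mt-Cytb, the cytochrome b subunit of complex III, 12086 and 6674 CPM stood against 15388 and 27670 (log2 fold change 1.20, and 0.72 without knockout 2).

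Subunits of complex I were less uniform. The log2 fold changes were 0.75 for mt-Nd1, 0.86 for mt-Nd2, 0.72 for mt-Nd3, 1.88 for mt-Nd4l, 1.09 for mt-Nd4 and 1.24 for mt-Nd5. Without knockout 2 they were 0.04 for mt-Nd1, 0.09 for mt-Nd3, 0.38 for mt-Nd2 and 0.59 for mt-Nd4, and without wild type 2 they were 0.31 for mt-Nd1, 0.49 for mt-Nd2 and 0.63 for mt-Nd4. In mt-Nd5, wild type 2 alone was low, with 4806 and 923 CPM in the wild types and 4566 and 8971 in the knockouts, and its log2 fold change was 0.49 without that library and 2.84 without wild type 1. The same library was lowest in mt-Nd4l, with 913 and 80.9 CPM against 1324 and 2345, and the log2 fold change of 1.88 was 1.01 without wild type 2. Without wild type 1 it was 4.46, which passed edgeR's quasi-likelihood test (adjusted p = 0.0159) on 1 wild type library that was assumed to vary as the others did. The light-strand messenger mt-Nd6 had 1637 and 1015 CPM in the wild types and 1214 and 2390 in the knockouts, the smallest log2 fold change of the 13 at 0.44, and -0.13 without knockout 2. Relative to mt-Cytb, its neighbour on the other strand, mt-Nd6 had 0.135 and 0.152 counts per count in the wild types. In the knockouts the ratio was 0.0789 and 0.0864. It is given with no test, and the sources used here do not give whether the counting used strand.

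**Figure D4:**
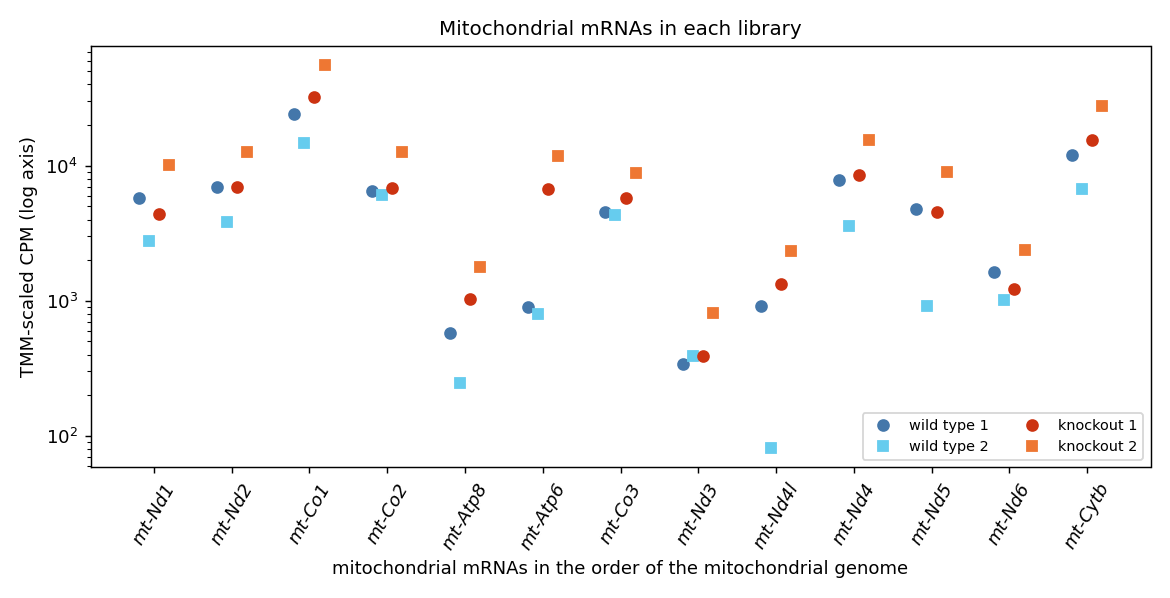
CPM of the 13 mitochondrial mRNAs (log axis) in each of the 4 libraries, in the order of the mitochondrial genome. Knockout 2 is the highest library for all 13 genes, and wild type 2 falls far below the other 3 for mt-Nd4l, at 80.9 CPM.

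The genes of ATP synthase subunits, mt-Atp8 and mt-Atp6, which overlap on the mitochondrial genome, had large values. There were 577 and 247 CPM of mt-Atp8 in the wild types and 1028 and 1778 in the knockouts (log2 fold change 1.77, SE 0.56; edgeR quasi-likelihood test, adjusted p = 0.547; DESeq2 adjusted p = 0.0432). For mt-Atp6, 893 and 795 CPM in the wild types stood against 6723 and 11768 in the knockouts, 11-fold (log2 fold change 3.45, SE 0.65, 95% interval from 1.92 to 4.99). Its share of the 13 messengers was 1.16% and 1.75% in the wild types and 7.02% and 6.88% in the knockouts, while mt-Co1 held 31.2%, 32.4%, 33.9% and 32.5%. DESeq2 called mt-Atp6 with an adjusted p of 3.14e-14, and edgeR's quasi-likelihood test gave 0.424.

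Reads of mt-Atp6 can also be assigned to a nuclear copy, Gm10925, in an insertion of mitochondrial DNA on chromosome 1, and the deposited counts divided between them differently in the 2 groups. The genes are identical over all 678 bases compared, as the first 60 bases of each show, from build mm10 at chrM:7927-7986 on the plus strand and chr1:24614592-24614651 on the minus strand, with capitals for the bases that mt-Atp6 shares with the end of mt-Atp8.
mt-Atp6: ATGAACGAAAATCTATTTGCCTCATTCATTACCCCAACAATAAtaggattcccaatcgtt
Gm10925: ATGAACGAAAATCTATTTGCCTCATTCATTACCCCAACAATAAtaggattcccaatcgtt

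There were 5.06 and 4.78 counts of Gm10925 per mt-Atp6 count in the wild types, and 1.05 and 1.05 in the knockouts. Counts of Gm10925 were 82913, 58421, 114301 and 195475, beside 16396, 12230, 108989 and 186578 for mt-Atp6, in the order wild type 1, wild type 2, knockout 1 and knockout 2. Summed over gene and copy, the log2 fold change was 1.92 (edgeR quasi-likelihood test, adjusted p = 0.586) in place of 3.45, and Gm10925 alone had 1.22 (SE 0.63, adjusted p = 0.634). The sources used here do not give how reads that match both places were assigned, and reads from identical sequence cannot be told apart.

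The insertion holds 7 annotated genes, at chr1:24611535-24616197 on the minus strand. Each is at least 99% identical to a mitochondrial messenger over at least 100 bases. Identity was complete for the copies of mt-Atp6, mt-Co2, mt-Co3, mt-Nd4 and mt-Nd4l, while the copies of mt-Co1 and mt-Nd3 each differed by 1 base, A1066T and T3C, written as mitochondrial base, position from the first base of the mitochondrial gene, and copy base. For mt-Co2, mt-Co3, mt-Nd3 and mt-Nd4l the copy had 0.935 to 1.1 counts per mitochondrial count in the 4 libraries. Gm28439 had 0.342, 0.147, 0.379 and 0.37 counts per mt-Nd4 count, and Gm29216 had 0.152, 0.378, 0.138 and 0.138 per mt-Co1 count, with wild type 2 the odd library in both. The 7 copies together took 2.55%, 1.86%, 2.98% and 4.87% of all counts. With each mitochondrial gene summed with its annotated copy, the median of the 13 was 1.06. Over the 6 messengers with no annotated near-identical copy, it was 1.03. Both knockouts lay above both wild types for 3 of the 6, and the groups overlapped for 3. Of all genes tested, 21.9% were higher in knockout without overlap. One of the 3, mt-Nd2, separated narrowly, with 6977 CPM in wild type 1 and 7005 in knockout 1. These 6 include mt-Atp8, whose gene lies between mt-Co2 and mt-Atp6, both copied in the insertion. The last 43 bases of mt-Atp8 are also in Gm10925, so the 6 are not free of copied sequence. Both medians were positive, and the part of read assignment in them was not tested.

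**Figure D5:**
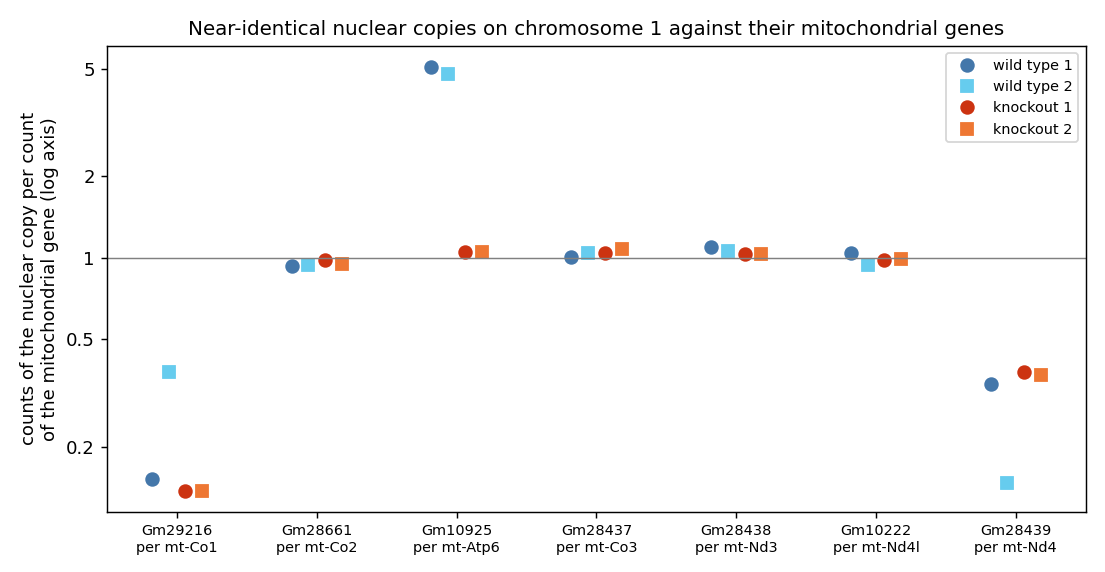
Counts of each of the 7 nuclear copies on chromosome 1 per count of its mitochondrial gene (log axis) in the 4 libraries. Gm10925 per mt-Atp6 is near 5 in the wild types and near 1 in the knockouts, while 4 of the other copies are near 1 in every library.

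Mitochondrial ribosomal and transfer RNAs were few, 0.0235% to 0.0826% and 0.0104% to 0.0275% of counts, in libraries made with a messenger RNA kit. The small ribosomal RNA mt-Rnr1, which Tfb1m methylates, had 161 and 132 CPM in the wild types and 184 and 406 in the knockouts (log2 fold change 1.01, SE 0.44; edgeR quasi-likelihood test, adjusted p = 0.609). The large one, mt-Rnr2, had 413 and 128 CPM against 162 and 449, lowest in wild type 2 and highest in knockout 2 (log2 fold change 0.18, SE 0.67). There were 134 and 174 counts of the 13 messengers per ribosomal RNA count in the wild types, and 276 and 200 in the knockouts. For the 6 messengers with no annotated near-identical copy the ratio was 55.6 and 59.3 against 97 and 74.2, again without overlap. Of 22 transfer RNA genes 17 were tested, with 12 positive, a median of 0.59 and overlap between the groups for all but 1, mt-Ti, which had 1.8 and 2.4 CPM against 2.47 and 4.16.

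Cell type markers moved with the groups in part. The tissue held hepatocyte transcripts, with 25777 and 75483 CPM summed over 16 markers in the wild types and 55489 and 48238 in the knockouts, and Alb at 5376 and 29461 against 21874 and 16813. Wild type 1 was thus the library with the fewest hepatocyte transcripts and wild type 2 the one with the most, and the knockouts lay between. All 10 macrophage markers had negative log2 fold changes, and their sum was 704 and 1046 CPM in the wild types and 393 and 261 in the knockouts, with Clec4f at 0 in wild type 1 and Timd4 in knockout 1. All 5 tested of 7 erythroid markers were negative, summing to 957 and 2172 CPM against 212 and 150.4. Neutrophil markers, 4 of 7 tested and all negative, summed to 12.7 and 51.8 CPM against 4.56 and 3.03, with Ly6g at 0 in every library. Of 8 endothelial markers 6 were negative, with sums of 137 and 156 against 100.1 and 83.1 CPM. Of 8 stromal markers 7 were negative, and their sums of 1406 and 1207 against 632 and 1145 did not overlap. Of 8 T cell markers 6 were positive, with sums of 27.6 and 10.7 against 20.9 and 20.7, and of 5 tested cholangiocyte markers 2 were positive, with sums of 415 and 974 against 1070 and 1126. Most of that sum was Spp1, a secreted protein that other cells also make, with 376 and 923 CPM against 1030.4 and 1064, and the other 4 tested cholangiocyte markers overlapped between the groups. The sums of macrophage, erythroid, neutrophil, endothelial and stromal markers separated the groups in the direction opposite to Twnk, Polg, Ppargc1a and the mitochondrial messengers, and Spp1 in the same direction, and their part in those results was not tested.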

How the data were processed

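Messenger RNA was sequenced from bulk HCC tissue of 4 mice, 2 labelled wild type and 2 labelled knockout. Per the labels' protocols, RNA came from a column kit and libraries from an mRNA kit. The submitters' processing notes name edgeR, HISAT2, StringTie and SAMtools 1.3.1 and the build mm10, but not what each tool did. Strandedness and the treatment of reads that map to several places are not given in the sources used here.

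The authors deposited raw counts per gene and FPKM for the 4 libraries, with no per-sample column left unused. The deposited FPKM gave the same gene length in all libraries within 1% for 100% of 14371 genes with at least 10 counts, and was used only for levels per length. Symbols came from GENCODE M21 for 55227 of 55487 identifiers, and 99.4% of these had the same span. Coordinates are mm10.

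Counts were filtered with filterByExpr, scaled by TMM and tested across 16310 genes with edgeR 4.0.16 (quasi-likelihood F test, two-sided, Benjamini-Hochberg adjustment, threshold 0.05) in R 4.3.3. The members and the gene lists were chosen with earlier results of these data known. The alternatives were DESeq2 1.42.0, limma-voom (limma 3.58.1), other scalings and filters, a replicate block and leaving out each library. Dropping mitochondrial genes with the nuclear copies, and summing each gene with its copy, were chosen after seeing the data. Named genes are the members, the mitochondrial mRNAs and rRNAs, up to 4 tested genes per pathway list with the smallest p, Tfrc and Alb. A gene that this rule takes and a marker at 0 are not reported here. Of each cell type list the 2 members with the highest level may be named, and others at 0 were named after their values were seen, as were the nuclear copies, overlapping genes, Polg2, Ssbp1 and mt-Ti. Nuclear copies were found with BLAST 2.17.0 among annotated GENCODE M21 transcripts, so copied sequence outside them was not searched. Wilson intervals cover counting error only, since reads carry no molecular identifiers.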

Additional observations from a re-analysis of the deposited data

How the results depend on the processing

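No member was called under any of the alternatives. The number of all genes called with an adjusted p under 0.05 was 0 higher and 0 lower in knockout with edgeR, 65 and 85 with DESeq2's Wald test, 2 and 2 with the replicate block, 1 lower with library totals and 1 lower with limma-voom. Leaving out each library gave 0 to 209 higher and 0 to 200 lower, the most without wild type 1, 29 and 39 without wild type 2, 2 and 1 without knockout 2, and 0 without knockout 1. The cause was not tested. Replicate numbers are not said to pair animals, and same-numbered libraries correlated at 0.121 in their deviations. The median of the members was -0.07, where library medians had an SD of 0.07 within groups. Without knockout 1 it was -0.05. It was 0.04 without wild type 1, 0.03 without wild type 2 and 0.07 without knockout 2. In these last fits the sign changed and the median moved by more than that SD. The median of the 13 mitochondrial mRNAs, 1.09, ranged from 0.59 to 1.54 when each library was left out, moving by less than its SD of 0.56.

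Twnk, Polg, Ppargc1a and Tfb1m kept their direction under every alternative run, at 0.33 to 0.65, 0.36 to 0.44, 0.05 to 0.34 and -0.34 to -0.14, with a smallest adjusted p of 0.203. The other 6 members changed sign when 1 library was left out, with log2 fold changes from -0.24 to 0.09 for Tfam, -0.11 to 0.05 for Polrmt, -0.53 to 0.16 for Tfb2m, -0.42 to 0.17 for Tefm, -0.54 to 0.08 for Lrpprc and -0.35 to 0.05 for Slirp. Polrmt also had 0.01 with a filter at a mean of 5 CPM. Likewise mt-Nd6 ranged from -0.13 to 0.82. Pairs of libraries leave the estimate of spread to pooling across genes. The members' intervals give the precision of their estimates and are not a limit of detection. Even mt-Atp6, at a log2 fold change of 3.45, did not pass edgeR's quasi-likelihood test (adjusted p = 0.424).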
